A study of Saccharomyces cerevisiae with 24 samples.

Results

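The start-codon windows described here are the stretches from the start codon (codon 0) to codon 19 of yeast coding sequences, as covered by ribosome footprints. A coding sequence entered when it had at least 100 codons and a mean of at least 20 RPM (reads scaled to 1000000 per library) over the 8 HEL2-FTP libraries, and 3615 of 6663 transcripts met this rule. They held 96.7% of all coding RPM, and 3600 of them have a gene symbol. The rule used length and total level, not the start codon. With the values of all 8 libraries pooled, transcripts on either side of the level limit had similar windows. The 147 members of 20 to 22 RPM had a pooled median relative occupancy of 0.280. The 162 transcripts of 18 to 20 RPM, which were left out, had 0.291. The change from input to IP was not compared across the limit. Of the 24 libraries of the series, in 12 groups of 2, the 16 from other strains were not used.

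All 8 libraries came from 1 budding yeast strain (Saccharomyces cerevisiae) of mating type MATa with the markers ade2, his3, leu2, trp1 and ura3 and with can1 and HEL2-FTP::natNT2, so the FTP-tagged Hel2 is shared by every group. Cells grew in YPD at 30 °C to an OD600 between 0.5 and 0.6. Lysates gave a cytosolic fraction and a membrane fraction, the latter solubilised with 1% Triton X-100, and footprints were cut with RNase I. Each fraction gave 2 input libraries (all footprints) and 2 IP libraries (footprints recovered with Hel2 by immunoprecipitation). No IP from a strain without the tag was used here. The labels do not say that replicates were separate cultures, so every p-value measures the spread between these libraries, which may be technical. The fractions differed in the direction of their markers: STT3, a subunit of the ER oligosaccharyltransferase, had 13.4 and 14.9 coding RPM in the cytosolic inputs and 291 and 279 in the membrane inputs, while the glycolytic enzyme PGK1 had 14070 and 15330 against 13320 and 14130. PGK1 thus had nearly the same scaled level in the inputs of both fractions. Each library was scaled to the same total, so these values do not measure how footprints divide between the fractions. HEL2 itself had 102 and 98.1 coding RPM in the cytosolic inputs and 439 and 424 in the cytosolic IP.

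Translation begins at the start codon, and the first codons are those over which initiation passes into elongation. Hel2 is a ubiquitin ligase that recognises the interface of collided ribosomes and starts ribosome quality control. Messages for secreted and membrane proteins begin translation in the cytosol. They are brought to the endoplasmic reticulum (ER) when a signal peptide or a first transmembrane segment leaves the ribosome, which happens after the start codon has been passed.

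How reads were assigned to codons is not given in the sources used here. The deposited RPM look like coverage, with each read spread over about 10 codons. Mean coverage rose by 97.4% to 128% from codon -5 to codon -4 in the 8 libraries, ahead of the start codon. If they are coverage, a value at codon 0 includes ribosomes a few codons downstream and neighbouring codons are not independent. Relative occupancy, the measure used below, is the RPM per codon divided by the mean RPM per codon over the whole coding sequence of that transcript in that library, so that 1 is the transcript's own mean.

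Footprints were sparse at the start codon and denser with every few codons after it, in all libraries. Mean relative occupancy over the 3615 members at codon 0 was 0.190 and 0.181 in the cytosolic inputs, 0.287 and 0.257 in the cytosolic IP, 0.148 and 0.154 in the membrane inputs and 0.196 and 0.198 in the membrane IP. At codon 19 it had reached 0.794 and 0.796, 1.09 and 1.10, 0.642 and 0.645, and 0.895 and 0.877 in the same order. Among codons 1 to 19 the mean fell at codon 6 and nowhere else, in each of the 8 libraries, by between -4.80% and -8.94% of the codon before. The IP curves lay above the input curves of their fraction at codons 0 and 19, and the membrane curves lay below the cytosolic ones of the same kind.

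**Figure D1:**
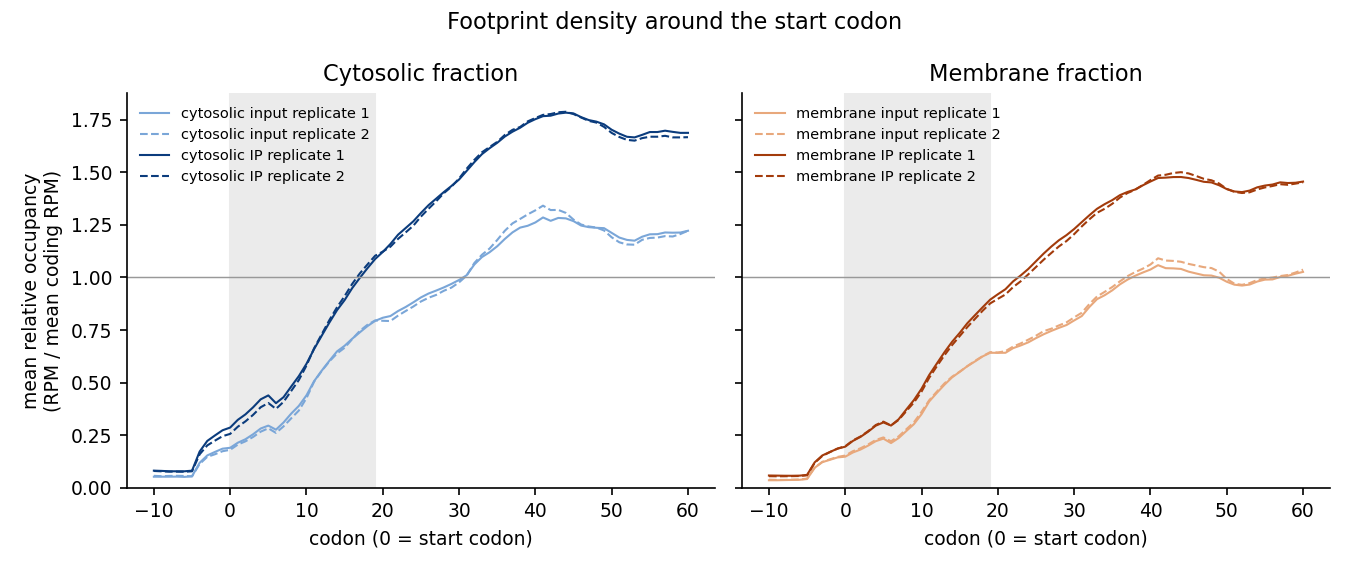
Mean relative occupancy (RPM divided by the transcript's mean coding RPM) at codons -10 to 60 over the members, with 1 line per library, the cytosolic fraction on the left and the membrane fraction on the right; solid lines are replicate 1, dashed lines replicate 2, and grey marks codons 0 to 19. In both panels the IP lines lie above the input lines and go on rising beyond the grey area to about codon 45.

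Averaged over codons 0 to 19, the window stood at 0.458 ± 0.0061 (SD, n = 2) in the cytosolic inputs and 0.627 ± 0.00614 in the cytosolic IP. It stood at 0.373 ± 0.00384 in the membrane inputs and 0.495 ± 0.00569 in the membrane IP. The 2 libraries of each IP group lay above both inputs of their fraction, and both membrane inputs lay below both cytosolic inputs. Weighted by level the inputs overlapped, at 0.409 and 0.405 in the cytosol and 0.410 and 0.404 in the membrane fraction. The ratio of IP to input was 1.37 in the cytosol and 1.33 in the membrane fraction. With that weighting, in which abundant messages count more, the IP/input ratios were 1.19 and 1.13. Windows above the transcript mean became more common in the IP: 329 and 298 members exceeded 1 in the cytosolic inputs and 583 and 566 in the IP, against 169 and 183 in the membrane inputs and 387 and 355 in that IP. An exact test of 2 against 2 libraries cannot give a two-sided p below 0.333, so these means carry no test.

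At single codons the IP/input ratio depended on the average used. The ratio of medians was 1.73 and 1.73 at codon 0 in the cytosolic replicates and 1.43 and 1.46 in the membrane ones, against 1.30 and 1.30, and 1.30 and 1.27, at codon 19. The ratio of means was 1.51 and 1.42 at codon 0 and 1.37 and 1.39 at codon 19 in the cytosol, and 1.32 and 1.29 against 1.39 and 1.36 in the membrane fraction. For the 20-codon window as a whole, the codons after it gained as well. Against the mean of codons 20 to 99 of the same transcript in place of the whole coding sequence, the median window was 0.294 ± 0.00123 in the cytosolic inputs and 0.298 ± 0.0049 in the cytosolic IP (SD, n = 2). The membrane groups had 0.286 ± 0.00388 and 0.278 ± 0.0033. The median over the whole coding mean was 0.302 and 0.394 in the cytosolic groups and 0.269 and 0.349 in the membrane groups. Relative to the codons that follow it, the median window thus differed little between IP and input. The single cytosolic libraries had medians of 0.2946 and 0.2929 in the inputs and 0.3019 and 0.2949 in the IP. The mean over members by this measure went the other way in the cytosol, at 0.410 and 0.4013 in the inputs and 0.401 and 0.396 in the IP. No direction is therefore read from these values.

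Single windows were tested with limma across all 83662 windows of 20 codons tiled over the members' coding sequences, 3114 of which are start windows. The other 501 members had an expected value (20 times the mean coding RPM) below 1 RPM and were not tested. The first test added 0.5 RPM to the window and to its expected value before taking log2. That addition pulls the value of a thinly covered window towards 0, so a change in the level of the whole message can be called as a change of its window. A second test, added after seeing the data, therefore used log2(relative occupancy + 0.05), and below a window is said to have risen or fallen when both tests called it in the same direction with an adjusted p below 0.05. Both scales understate the change of low windows. The first scale can also understate the change in any window of a message with few RPM. Log2 changes of the first test are therefore not comparable between genes or fractions of different level.

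In the cytosolic fraction the first test called 734 start windows higher and 365 lower in the IP, 35.3% of 3114, beside 40.3 percent of all windows (13.9 percent higher and 26.4 percent lower). Both tests called 440 higher and 101 lower (14.1% and 3.24%). Of all windows, 8.5 percent were called higher and 12.5 percent lower in both tests. The share of risen windows was larger in the codons after the start window. Codons 20 to 39 rose in 25.3% of members, codons 40 to 59 in 25.8%, and the share then declined to 9.44% at codons 180 to 199. The median log2 change of start windows was 0.13 in the first test and 0.26 in the second, against 0.28 and 0.33 for codons 20 to 39; windows other than start windows had a median of -0.13 in the first test. Of the first test's calls 66.8% were higher, and 79.7% with each library centred on its median.

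In the membrane fraction the same 2 tests were made. The first test called 724 start windows higher and 345 lower, 34.3% of 3114, beside 35.7 percent of all windows (13.2 percent higher and 22.6 percent lower). Both tests called 342 higher and 69 lower, 11.0% and 2.22% of start windows, beside 7.52 and 8.79 percent of all windows. The median log2 change was 0.14 in the first test and 0.22 in the second. Of the first test's calls 67.7% were higher, and 79.2% with centred libraries. The first test called 672 windows without membrane IP replicate 1 and 707 without membrane input replicate 1. With the mean of codons 20 to 99 as denominator, the first test called 282 start windows higher and 825 lower in the cytosol, beside 4.68 and 50.5 percent of all windows, and 218 and 751 in the membrane fraction, beside 4.09 and 49.5 percent. The second test with that denominator called 244 higher and 228 lower in the cytosol, beside 3.76 and 35.3 percent of all windows, and 160 and 240 in the membrane fraction, beside 3.25 and 36.6 percent. The IP comparisons of the 2 fractions share no library. Both use the same estimate of spread for each window, so their calls are not independent. The 2 comparisons had 241 risen windows in common, 54.8% of the cytosolic and 70.5% of the membrane ones. They shared 46 fallen windows, 45.5% and 66.7%. The same overlap over all windows is not given here. No window rose in one fraction and fell in the other.

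**Figure D2:**
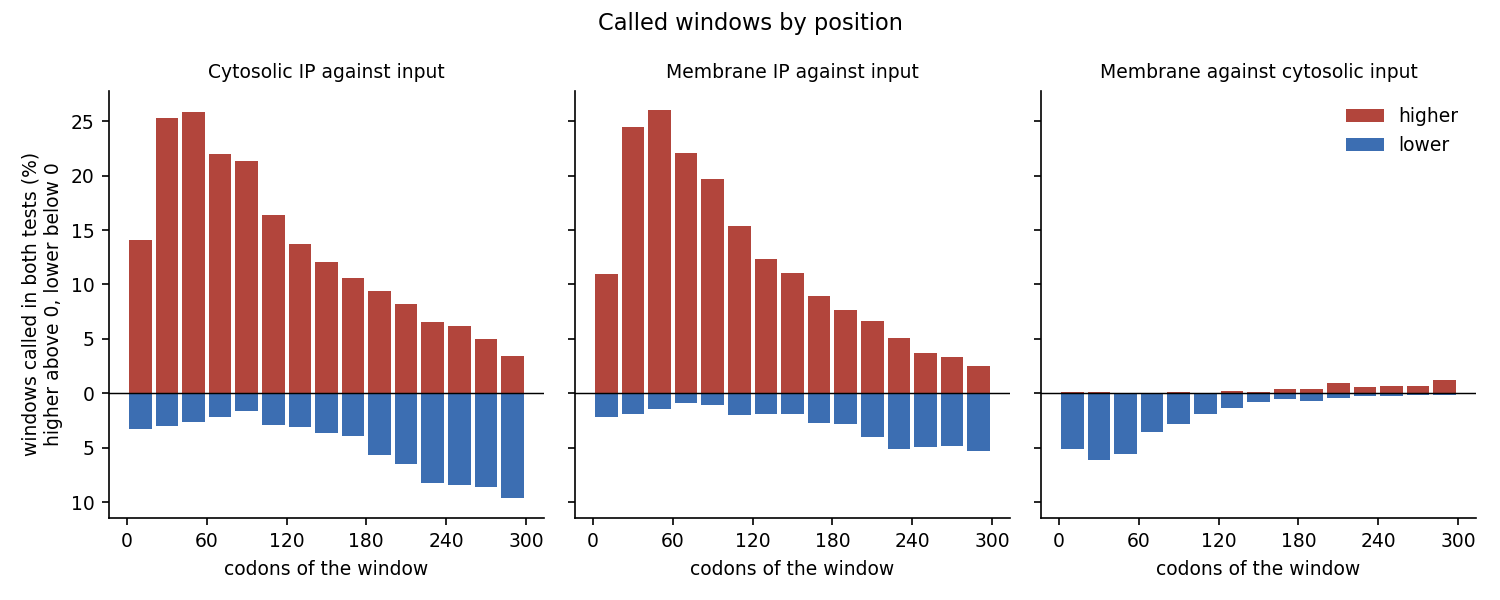
Percent of 20-codon windows called in both limma tests, by position along the coding sequence (first 300 codons), with windows called higher drawn above 0 and lower below 0; panels show cytosolic IP against input, membrane IP against input, and membrane against cytosolic input. In both IP panels the first bar (14.1% and 11.0% higher) is lower than the next 4, and in the right panel the lower calls lie mostly within the first 120 codons.

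The IP/input change differed between classes of coding length. In the 382 members of 100 to 199 codons the median window was 0.321 and 0.316 in the cytosolic inputs and 0.262 and 0.258 in the IP, so both IP libraries lay lower. In the 938 members of 500 to 799 codons the medians were 0.311 and 0.306 in the inputs and 0.499 and 0.487 in the IP. The 160 members of 1500 codons or more had 0.469 and 0.425 in the inputs and 0.931 and 0.971 in the IP. Among short members 5 windows rose and 48 fell of 382 tested, and among those of 800 to 1499 codons 122 rose and 0 fell of 444 tested. These are 1.31% and 12.6% of the short members and 27.5% of the longer ones, beside 14.1% risen and 3.24% fallen over all start windows. The same classes had in the membrane fraction 1 rise and 34 falls, and 106 rises and 0 falls. With the ribosomal proteins left out, 4 rose and 32 fell of 297 short members in the cytosol. Against codons 20 to 99, the medians of members of 800 to 1499 codons were 0.279 and 0.281 in the cytosolic inputs and 0.302 and 0.287 in the IP. Members of 500 to 799 codons had 0.285 and 0.297 against 0.320 and 0.309 by this measure. Those of 1500 codons or more overlapped, at 0.343 and 0.326 in the cytosolic inputs and 0.344 and 0.332 in the IP. The members of 100 to 199 codons stayed lower in the IP, at 0.302 and 0.296 against 0.238 and 0.238.

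**Figure D3:**
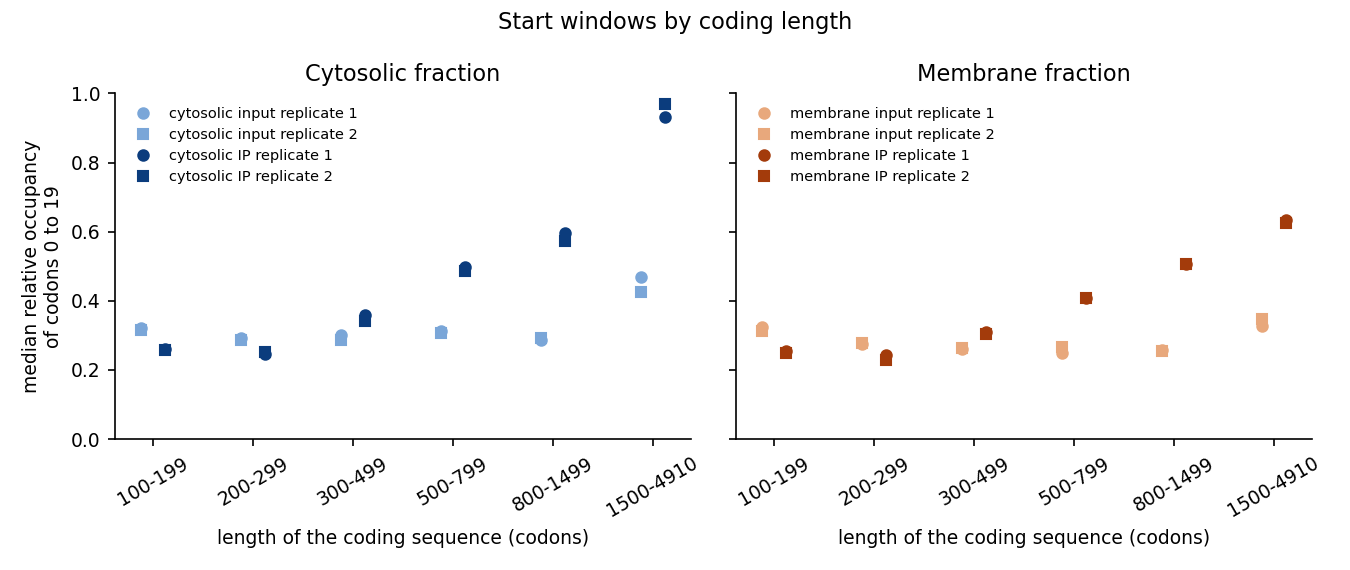
Median relative occupancy of codons 0 to 19 (y axis) for members in 6 classes of coding length in codons (x axis), 1 point per library; circles are replicate 1 and squares replicate 2, with inputs in light and IP in dark colours. Input medians stay between 0.250 and 0.469 while IP medians climb from 0.248 and 0.252 in members of 200 to 299 codons to 0.931 and 0.971 in the longest in the cytosol, and from 0.244 and 0.230 to 0.633 and 0.625 in the membrane fraction.

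TOM70 was among the genes with the largest rises in both fractions. It encodes an import receptor of the mitochondrial outer membrane, and its window lies on chromosome XIV, 400478 to 400537, on the minus strand (assembly R64). The window had a relative occupancy of 0.856 and 0.731 in the cytosolic inputs, 6.10 and 6.29 in the cytosolic IP, 0.388 and 0.419 in the membrane inputs and 2.64 and 2.30 in the membrane IP. Every IP library lay above every input of its fraction. The log2 change was 2.49 ± 0.14 (SE) in the cytosol, with a limma adjusted p of 3.784e-08, and 2.39 ± 0.14 in the membrane fraction, with 6.086e-08.

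APE2, an aminopeptidase, stood at 0.148 and 0.154 in the cytosolic inputs and 1.28 and 1.38 in the cytosolic IP, a log2 change of 2.60 ± 0.15 (limma adjusted p 5.15e-08). The membrane fraction had 0.355 and 0.415 in the inputs and 1.92 and 1.74 in the IP for this gene, with a log2 change of 2.07 ± 0.15. The groups did not overlap in either fraction. Divided by the mean of codons 20 to 99, the APE2 window was 1.46 and 1.27 in the cytosolic inputs and 1.79 and 1.68 in the IP, and the membrane groups overlapped, at 1.61 and 1.71 against 1.70 and 1.36. TOM70 by the same measure was 0.678 and 0.599 in the cytosolic inputs and 2.48 and 3.07 in the IP, without overlap.

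The plasma membrane proton pump PMA1, with its window on chromosome VII, 482607 to 482666, on the minus strand, had sparse starts in the inputs. It stood at 0.138 and 0.155 in the cytosolic inputs, 0.969 and 0.860 in the IP, 0.0516 and 0.0679 in the membrane inputs and 0.206 and 0.230 in that IP. The groups did not overlap, with log2 changes of 2.40 ± 0.17 in the cytosol and 1.83 ± 0.17 in the membrane fraction (limma adjusted p 3.159e-07 and 4.811e-06). ATP2, the beta subunit of the mitochondrial ATP synthase, rose in both fractions as well: from 0.106 and 0.166 to 0.386 and 0.458 in the cytosol, and from 0.0988 and 0.122 to 0.313 and 0.310 in the membrane fraction. Its log2 changes were 1.55 and 1.40, with limma adjusted p of 5.973e-05 and 0.0001815.

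KAR2, the chaperone of the ER lumen, stood above its own mean even in the cytosolic inputs, at 1.13 and 1.51, and reached 4.07 and 5.28 in the cytosolic IP. It also rose in the membrane fraction, from 0.374 and 0.526 to 1.09 and 1.05. The log2 changes were 1.795 ± 0.19 and 1.25 (limma adjusted p 1.124e-05 and 0.0002964). The other cytosolic rises named by the rule were TPD3 (a subunit of protein phosphatase PP2A), ARK1 (an actin-regulating kinase), VIR1 and the uncharacterised frame YCL042W, with log2 changes between 1.74 and 2.31. In the membrane fraction HXT6 and HXT7, hexose transporters too alike for their reads to be told apart, rose by log2 values of 2.04 and 2.07, the amino acid permease DIP5 by 2.02, YCL042W by 1.98 and TPD3 by 1.73. All of these were called in both tests.

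The largest falls of the first test were of another kind. YLR035C-A and YAR009C (transposon reading frames, near-identical copies of which exist), RSF2, GAT1, SWC7, ECM22, ENT4 and PPS1 were called lower in a fraction although their relative occupancy in the IP and input libraries overlapped or lay near 0. The window of RSF2, for example, was at 0 in 7 libraries and at 0.0184 in membrane IP replicate 1. WHI5 and SGF29, whose windows were thin as well, were lower without overlap in 1 fraction each, but were not called by the second test (adjusted p 0.723 and 0.0967). None of these 10 windows fell by the criterion of both tests.

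RPS17A, a protein of the small ribosomal subunit with a near-identical copy, did fall. It stood at 0.264 and 0.248 in the cytosolic inputs and 0.0798 and 0.0833 in the IP, a log2 change of -1.59 ± 0.16 (limma adjusted p 5.821e-06). Both IP libraries lay below both inputs, and in the membrane fraction the values were 0.194 and 0.227 against 0.0744 and 0.0858. PAB1, the poly(A)-binding protein, stood at 0.807 and 0.703 in the cytosolic inputs and 0.328 and 0.294 in the IP, a log2 change of -1.26 with a limma adjusted p of 5.217e-05. PAB1 in the membrane fraction went from 0.464 and 0.463 to 0.290 and 0.258, a difference called by the first test and not by the second (adjusted p 0.0558). Most of its input signal lay late in the window: codons 10 to 19 stood at 1.41 and 1.19 in the cytosolic inputs and codons 0 to 9 at 0.202 and 0.213.

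**Figure D4:**
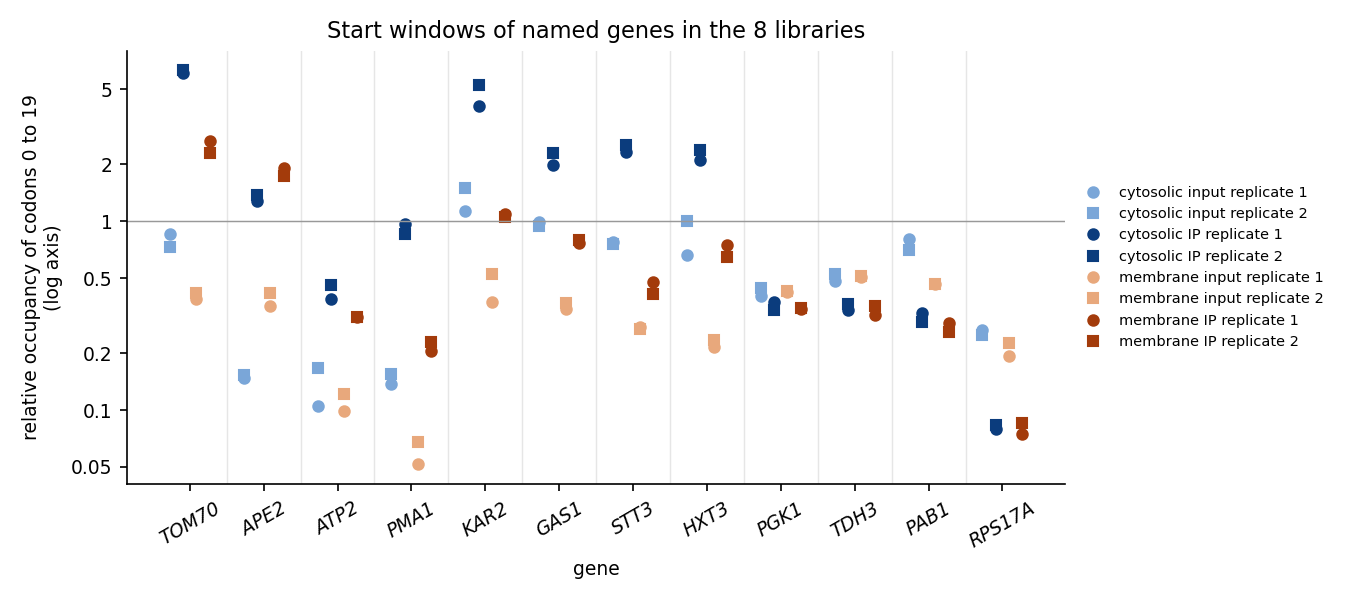
Relative occupancy of codons 0 to 19 (log axis) in the 8 libraries for 12 named genes; circles are replicate 1 and squares replicate 2, blue is the cytosolic and orange the membrane fraction, with inputs light and IP dark. TOM70, APE2, ATP2, PMA1, KAR2, GAS1, STT3 and HXT3 have both IP points above both inputs in each fraction, and PGK1, TDH3, PAB1 and RPS17A have them below.

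Gene lists gave different shares of risen and fallen start windows. Of 40 tested multispanning membrane proteins, such as transporters, 21 rose and 0 fell in the cytosolic IP and 20 rose and 0 fell in the membrane IP. These rises are 52.5% and 50% of the list, beside 14.1% and 11.0% of all start windows. Their median log2 changes in the first test were 0.71 and 0.82, against 0.13 and 0.14 over all start windows. Against codons 20 to 99 little of this was left: the list's median window was 0.367 and 0.386 in the cytosolic inputs and 0.433 and 0.405 in the IP, and 0.309 and 0.279 against 0.312 and 0.300 in the membrane fraction. HXT3, a hexose transporter, went from 0.659 and 1.00 to 2.11 and 2.39 in the cytosol and from 0.215 and 0.236 to 0.749 and 0.643 in the membrane fraction. STT3 went from 0.777 and 0.759 to 2.34 and 2.52, and from 0.276 and 0.268 to 0.479 and 0.412. Both genes rose in both fractions, with log2 changes of 1.32 and 1.58 for HXT3 and 1.15 and 0.57 for STT3.

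Of 44 proteins with a signal peptide, 15 rose and 0 fell in the cytosol, and 8 rose and 1 fell in the membrane fraction. The rises are 34.1% and 18.2% of the list. Its median window against codons 20 to 99 was 0.390 and 0.396 in the cytosolic inputs, 0.404 and 0.465 in that IP, 0.333 and 0.331 in the membrane inputs and 0.336 and 0.374 in that IP. GAS1, a glucan-modifying enzyme of the cell wall, rose in both, from 0.995 and 0.948 to 1.99 and 2.30 and from 0.343 and 0.371 to 0.769 and 0.798. CCW12, a small and abundant cell wall protein, stood lower in the cytosolic IP (0.562 and 0.693) than in the inputs (0.803 and 1.02), which the first test called and the second did not (adjusted p 0.0232 and 0.0957). Of 31 mitochondrial proteins with a presequence, 7 rose in the cytosol and 5 in the membrane fraction, and none fell in either. That is 22.6% and 16.1%, beside 14.1% and 11.0% of all start windows, a difference of a few genes.

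Cytosolic ribosomal proteins had more falls than rises. Of 114 ribosomal proteins, 1 rose and 19 fell in the cytosol, and 0 rose and 16 fell in the membrane fraction. The falls are 16.7% and 14.0% of the list, beside 3.24% and 2.22% of all start windows. The first test called 43 and 48 of them lower, with median log2 changes of -0.36 and -0.33. Their median window was 0.239 and 0.246 in the cytosolic inputs and 0.180 and 0.180 in the IP, and stayed lower against codons 20 to 99, at 0.233 and 0.243 against 0.181 and 0.171. Of 18 glycolytic and fermentation enzymes 3 rose in each fraction and none fell, although the list's median log2 changes were -0.17 and -0.28. The rises are 16.7% of this short list in each fraction, near the share over all start windows. Of 23 translation factors, 3 rose and 2 fell in the cytosol, and 2 rose and 0 fell in the membrane fraction. The risen shares, 13.0% and 8.70%, are near those over all start windows.

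PGK1 showed that a 20-codon sum can hide opposite changes. Its whole window stood at 0.401 and 0.446 in the cytosolic inputs and 0.376 and 0.340 in the IP, with a limma adjusted p of 0.241. Over codons 0 to 9 it stood at 0.108 and 0.0834 in the inputs and 0.204 and 0.169 in the IP, a log2 change of 0.97 (limma adjusted p 0.0004622). Over codons 10 to 19 the inputs had 0.693 and 0.808 and the IP 0.547 and 0.511. TEF1, an elongation factor with a near-identical copy, went the other way over codons 0 to 9, from 0.246 and 0.190 to 0.165 and 0.118 (log2 change -0.62).

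At the level of single codons, the 679 members with at least 0.5 RPM per codon were tested with limma over 303507 codons. In the cytosol 3069 of the 13580 codons at positions 0 to 19 were called higher and 2822 lower, 43.4% in all, beside 46.1 percent of all codons (13.7 percent higher and 32.4 percent lower). The share called was 56.6% at codon 0 (220 higher and 164 lower), 32.8% at codon 17 and 37.7% at codon 19. Beyond the window it was 45.1% at codon 24. In the membrane fraction 2490 were called higher and 2769 lower, 38.7% beside 40 percent of all codons (11.1 percent higher and 28.9 percent lower), with 164 higher and 169 lower at codon 0. Since 0.05 RPM was added to codon and mean alike, these counts carry the same dependence on level as the first window test. Among members at 2 RPM per codon or more, 714 of 4440 codons were called higher and 1219 lower in the cytosolic IP, beside 14.8 and 19.0 percent of all codons of those members, and 478 and 1176 in the membrane fraction, beside 10.3 and 15.5 percent.

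No start window was called as different between the fractions in its IP/input change. Limma called 0 of 3114, and the second test called 0. At an unadjusted limma p below 0.05 there were 172 of the 3114, beside 5721 of all 83662 windows. Among all windows 0.136 percent were called by the first test. The median of the difference over start windows, membrane minus cytosol, was -0.0030 on the log2 scale. The larger cytosolic ratio of STT3 against its membrane ratio was thus among the differences not called.

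Relative to the whole coding mean, almost all start windows called between the inputs were lower in the membrane fraction. This comparison uses the same input libraries as both IP comparisons. The first test called 8 start windows higher and 365 lower, 12.0% of 3114, beside 3.55 percent of all windows (1.58 percent higher and 1.97 percent lower). Both tests called 3 higher and 160 lower, 0.0963% and 5.14% of start windows, beside 0.785 and 1.13 percent of all windows. With codons 20 to 99 as denominator the first test called 7 higher and 141 lower, beside 5157 and 361 of all 83662 windows. The second test with that denominator called 28 higher and 31 lower of 3110, beside 8.51 and 0.533 percent of all windows. Almost all start windows called with that denominator were thus lower in the first test, but not in the second. In both tests most calls over all windows were higher. Windows at codons 20 to 39 and 40 to 59 were lower in 6.10% and 5.59% of members, and the share fell to 0.696% at codons 180 to 199.

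The windows that were lower in the membrane inputs belonged to messages enriched there. Of the 160, 158 (98.8%) had at least 2-fold more RPM beyond codon 99 in the membrane than in the cytosolic inputs, and 152 had at least 4-fold more. These values share libraries and the coding mean with the test, so they describe the windows and are not separate evidence. Of all 462 tested members with that 2-fold enrichment, 34.2% had a fallen window.

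Multispanning membrane proteins were lower as a list. Their median window stood at 0.766 and 0.764 in the cytosolic inputs and 0.224 and 0.236 in the membrane inputs, over the 40 tested members, and 22 of the 40 were lower in both tests (39 in the first). Against codons 20 to 99 the gap was smaller, with list medians of 0.367 and 0.386 in the cytosolic and 0.309 and 0.279 in the membrane inputs. The summed RPM of these windows was 3.44 times higher in the membrane than in the cytosolic inputs, and that ratio climbed to 4.09 at codons 20 to 39, 5.55 at codons 80 to 99 and 8.55 at codons 180 to 199. Each library was scaled to the same total, so these ratios compare scaled values and do not measure how footprints divide between the fractions. For the list of signal peptide proteins, 13 of 44 windows were lower and 0 higher, with medians of 0.511 and 0.609 in the cytosolic and 0.313 and 0.327 in the membrane inputs. None of the 31 mitochondrial, 18 glycolytic, 23 translation factor and 114 ribosomal protein windows was called in both tests, and the mitochondrial medians were 0.395 and 0.386 against 0.362 and 0.422.

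**Figure D5:**
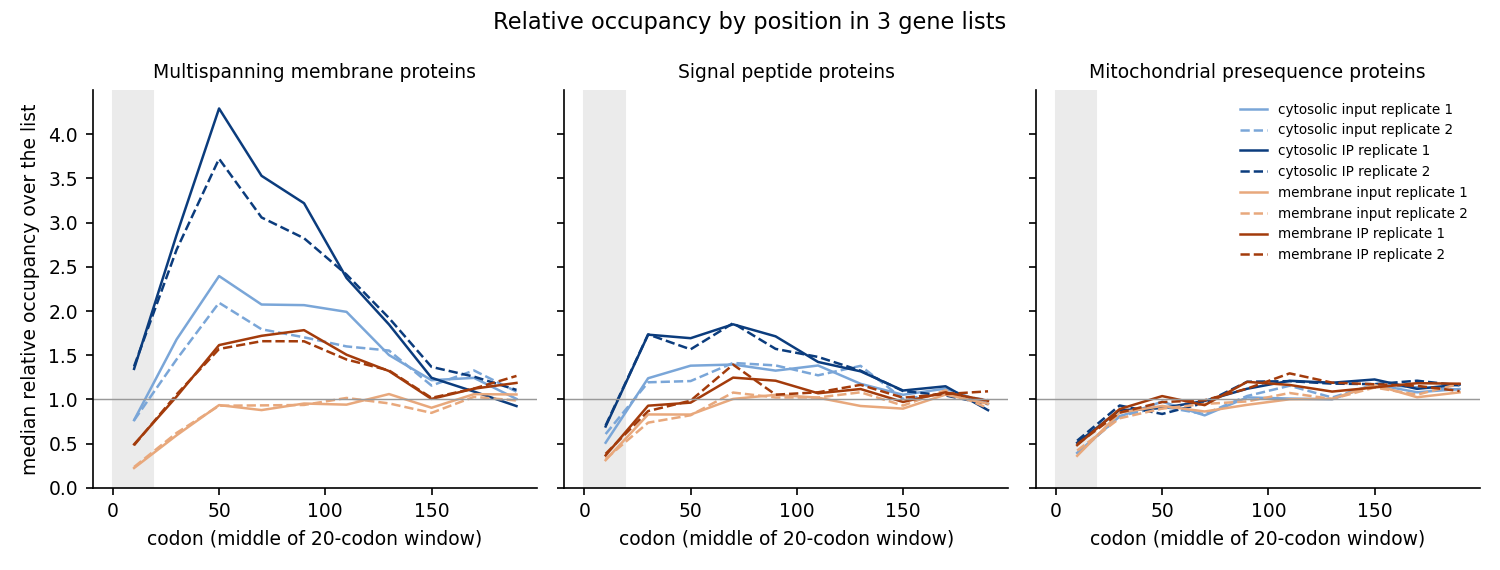
Median relative occupancy over 3 gene lists (y axis) in 20-codon windows along the first 200 codons (x axis), 1 line per library, with solid lines for replicate 1, dashed lines for replicate 2 and grey for codons 0 to 19. Multispanning proteins run from 0.766 and 0.764 at the start to 2.40 and 2.09 at codons 40 to 59 in the cytosolic inputs and from 0.224 and 0.236 to 0.936 and 0.929 in the membrane inputs, while the input lines of the mitochondrial list overlap at the start.

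ZRC1, a zinc transporter of the vacuole, illustrates these windows: it stood at 1.25 and 0.864 in the cytosolic inputs and 0.198 and 0.161 in the membrane inputs, without overlap, a log2 change of -2.03 ± 0.19 (limma adjusted p 7.584e-05). CWH43, which remodels GPI-anchor lipids, went from 0.429 and 0.691 to 0.0962 and 0.0911, a log2 change of -2.08. OST1 (oligosaccharyltransferase), KTR1 (mannosyltransferase) and TPO3 (polyamine transporter) were also lower in both tests, with log2 changes between -2.23 and -2.11. STT3, KAR2, HXT3 and GAS1 were lower too, with log2 changes of -1.51, -1.48, -1.84 and -1.42. PMT2, a protein mannosyltransferase, was lower without overlap but not called by the second test (adjusted p 0.0953), while PMA2 and COS4, near-copies of other genes, overlapped between the inputs (0 to 0.115 and 0 to 0.0236 in the 4 libraries).

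The 3 windows that rose in the membrane inputs in both tests were those of APE2, MDY2 and PDR1. MDY2, a factor for inserting tail-anchored proteins, went from 0.103 and 0.126 to 0.282 and 0.275. PDR1, a transcription factor of drug resistance, went from 0.666 and 0.840 to 1.48 and 1.58, a log2 change of 0.55 ± 0.14 (limma adjusted p 0.0436). The other rises named by the rule, EDC1, VPS74, TRS33, CUE5 and SFM1, did not overlap but had adjusted p of 0.0721 to 0.147 in the second test.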

How the data were processed

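The authors deposited RPM per codon for 6663 transcripts in each of the 8 libraries, summing to between 999421 and 999937, and a ratio per codon (RPM over 1 value per transcript) that was read as a check only. Per the submitters' processing notes, CASAVA 1.8, UMI-tools, Bowtie2 and TopHat and the build sacCer3 were used. Depth in reads is not given in the files, whose fractional values were not turned into counts. RefSeq's gene annotation (assembly R64) supplied symbols and coordinates. Windows were tested with limma 3.58.1 (R 4.3.3; trended variance, 4 group means, 8 libraries in 1 fit) and Benjamini-Hochberg adjustment over all windows or codons. Calls need an adjusted p below 0.05. Named genes are a list of 24 plus, per comparison, up to 8 rises and 8 falls called by the first test with the same sign in both same-numbered pairs. The members and lists were chosen with earlier results of these data known, and the second test was chosen after seeing the data. The procedure was tested on simulated data. Other pseudocounts, filters, denominators, window lengths and left-out libraries were tried.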

Additional observations from a re-analysis of the deposited data

How the results depend on the processing

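Counts of called start windows moved by over 1.5 times under these settings. Some of them tested fewer windows, so a lower count there need not be a lower share. The cytosolic IP comparison (1099) gave 446 with an expected window of at least 5 RPM (1109 tested), 667 with a window mean of at least 1 RPM (1683 tested), 690 in the second test and 472 with codons 20 to 99 as denominator in the second test. The membrane IP comparison (1069) gave 386, 585, 530 and 400 in the same order and 696 with a pseudocount of 0.1 RPM. Leaving out 1 library in turn gave 772 to 1086 and 672 to 1081 calls, lowest in the membrane fraction without membrane IP replicate 1 (672) and without membrane input replicate 1 (707). The inputs (373) gave 79, 198, 186 and 59 in the same order. They gave 148 (7 higher and 141 lower) with codons 20 to 99 in the first test. Among members at 50 RPM or more they gave 238 of 2070 tested, or 11.5% beside 12.0% of the 3114. Leaving out 1 library gave 283 to 367. The difference between fractions (0) gave 7 at a pseudocount of 2 RPM, 1 without the filter and 0 without any 1 library. Single codons (5891 and 5259) gave 1933 and 1654 of 4440 at 2 RPM per codon, where 1219 and 1176 were lower, and 4572 to 5755 and 3718 to 5428 without 1 library.

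The direction turned with the denominator in the first test, and in the second test only in the membrane fraction. With codons 20 to 99, 825 and 751 of the first test's calls were lower and 282 and 218 higher. Its median log2 change was -0.17 and -0.16. In the second test the median was 0.016 in the cytosol and -0.0290 in the membrane fraction. The mean IP/input ratios of 1.37 and 1.33 became 0.982 and 0.978. They were 1.30 and 1.30 as medians, 1.35 and 1.28 among members at 50 RPM or more, 1.19 and 1.13 weighted by level, and 1.39 for the cytosol over codon 40 to 20 before the end. Centring libraries on their median moved the share of higher calls from 66.8% to 79.7% in the cytosol and from 67.7% to 79.2% in the membrane fraction.

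Among named genes, the second test turned YLR035C-A (0.14 and 0.0015 on the log2 scale in cytosol and membrane), SWC7 (0.25 in cytosol), YAR009C (0.11 and 0.098), GAT1 (0.044 in cytosol), RSF2 (0.23), ENT4 (0.17) and PPS1 (0.36 in membrane). With codons 20 to 99 as well, YLR035C-A (0.91 and 0.019), SWC7 (0.23 and 0.064), YAR009C (0.67), GAT1 (0.13), ENT4 (0.24), PPS1 (0.35), APE2 (-0.12 in membrane) and, between inputs, PMA2 (1.00), PDR5 (0.028), SEC61 (0.0078) and PRC1 (0.057) turned. With codons 20 to 99 in the first test, APE2 (-0.00894) and RSF2 (0.038) in the membrane fraction and PDR5 (-0.17 and -0.093) turned. With 10-codon windows PGK1 (0.97 and 0.60) and TEF1 (-0.62) changed sign. The second test differs from the first in its scale and in its pseudocount. The cause of these changes of sign was not tested.

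Replicates share only a number. Deviations of same-numbered libraries correlated at 0.461 (cytosol), 0.329 (membrane) and 0.146 (inputs) across windows. With the number as a replicate block, calls were 1303, 1264, 426 and 4 (difference), and 7189 and 6619 for single codons.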

Other observations

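The highest start windows belonged to messages outside the named lists. CAN1, the arginine permease, had the highest mean over the 8 libraries, with relative occupancies between 5.69 and 8.03, and the genotype of the strain lists can1. The next were YDR133C (4.47 to 5.08), MGM1, a dynamin-like protein of mitochondria, and the near-identical subtelomeric frames YJL225C and YIL177C (2.69 to 5.45 and 2.69 to 5.42). MGM1 stood at 2.52 and 2.22 in the cytosolic inputs, 7.77 and 7.90 in the cytosolic IP, 1.31 and 1.32 in the membrane inputs and 4.39 and 4.53 in the membrane IP. EGT2, a cell wall protein, stood at 5.27 and 3.60 in the cytosolic inputs and 0.901 and 1.14 in the membrane inputs. These windows were picked for their high values, so no test is attached. The start window of HEL2 stood between 0.157 and 0.272 in the 8 libraries and was called in neither IP comparison. In each fraction both IP libraries lay above both inputs. Over codons 0 to 9 the first test called it lower in both fractions (limma adjusted p 0.01164 and 0.004407). Its relative occupancies there overlapped, at 0.126 and 0.207 against 0.214 and 0.167 in the cytosol. The membrane fraction had 0.172 and 0.175 against 0.194 and 0.174.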
